A study of Mus musculus with 9 samples.

Results

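The transcripts described here are those of 31 mouse genes of sterol and fatty acid synthesis, chosen by name from the 18507 named genes that passed the filter on dim probes. They comprise 18 enzymes of sterol synthesis, 6 regulators and sterol transport genes and 7 fatty acid enzymes. Of the sterol enzymes, 7 act between acetyl-CoA and farnesyl diphosphate (the mevalonate steps) and 11 between squalene and cholesterol. All 31 passed the filter, and each gene's chosen probe was well above background on all 9 arrays, so no listed gene passed through 1 group alone.

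Peritoneal macrophages from male mice, isolated by flow cytometry as CD45+ F4/80+ cells, were hybridised to 9 single-colour arrays, 3 per group. In group M they had shared a co-culture with CT-26 (murine colon carcinoma cells) and were collected as migratory cells from the upper chamber of a Transwell, a well divided by a porous membrane. In group T they had spent 24 h in the lower chamber, in co-culture with CT-26, and in group Ctrl they had been kept alone for 24 h in regular medium. The time in culture of group M and the mouse strain are not given in the sources used here. The cell type label calls the T samples migratory, whereas titles, descriptions and the treatment protocol give that name to M, and groups follow the titles. Whether the 3 arrays of a group stand for separate mice or separate cultures is not stated, and the p-values cover the spread between those samples alone, which may be technical.

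Cholesterol is built from acetyl-CoA through mevalonate, isoprenoids, squalene and lanosterol. Transcription of these enzymes is driven by sterol regulatory element-binding proteins, the products of Srebf1 and Srebf2. When sterols are scarce, Scap escorts these proteins from the endoplasmic reticulum for activation, and when sterols are plentiful, the Insig proteins hold Scap back. Srebf2 acts mainly on sterol genes, while Srebf1 acts mainly on fatty acid genes, where liver X receptors also raise Scd1 in sterol-laden macrophages.

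Promoters are shown because many sterol genes carry CCAAT boxes beside their sterol response elements, where the factor NF-Y binds together with the regulatory proteins. Sequences are from RefSeq on GRCm38.p6, the 180 bases before the annotated start. The first 4 lines are sterol enzymes, of which Mvk, Idi1 and Hsd17b7 were called higher in M than in T, and the last is the fatty acid enzyme called lower in M. Capitals mark CCAAT on either strand (ATTGG on the strand shown), except in Hmgcs1, where they mark TCACNCCAC, a form of the sterol response element.
Mvk (chr5:114444089-114444268, plus strand): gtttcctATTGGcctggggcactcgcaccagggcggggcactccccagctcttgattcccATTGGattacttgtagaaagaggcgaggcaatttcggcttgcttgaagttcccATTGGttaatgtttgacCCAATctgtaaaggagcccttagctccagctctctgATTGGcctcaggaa
Idi1 (chr13:8885426-8885605, plus strand): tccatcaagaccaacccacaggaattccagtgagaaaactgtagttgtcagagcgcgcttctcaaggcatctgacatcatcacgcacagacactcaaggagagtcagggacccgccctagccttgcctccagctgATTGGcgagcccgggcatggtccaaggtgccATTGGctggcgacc
Hsd17b7 (chr1:169969206-169969385, minus strand): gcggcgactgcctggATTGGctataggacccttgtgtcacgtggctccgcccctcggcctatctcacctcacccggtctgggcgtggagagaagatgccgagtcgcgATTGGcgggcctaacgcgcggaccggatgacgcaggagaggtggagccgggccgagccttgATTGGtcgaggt
Hmgcs1 (chr13:119690171-119690350, plus strand): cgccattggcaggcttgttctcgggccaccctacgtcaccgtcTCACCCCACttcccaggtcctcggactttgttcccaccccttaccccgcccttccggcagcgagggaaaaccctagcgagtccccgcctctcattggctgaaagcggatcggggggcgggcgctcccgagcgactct
Fasn (chr11:120824548-120824727, minus strand): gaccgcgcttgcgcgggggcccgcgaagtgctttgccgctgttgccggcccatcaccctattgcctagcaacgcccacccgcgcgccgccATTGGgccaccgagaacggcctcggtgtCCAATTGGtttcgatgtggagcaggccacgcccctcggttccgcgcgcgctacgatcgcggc
The Mvk window held 5 boxes, Idi1 2, Hsd17b7 3 and Fasn 3, of which a pair overlaps in Fasn. Over the full table window (250 bases before to 50 after the start, both strands), 24 of the 31 genes were matched, with 32 promoters in all, and Fdps, Fdft1, Sqle, Stard4, Fads1, Scd1 and Scd2 were not matched. CCAAT lay in 14 of 18 promoters of sterol enzymes (77.8%), in 5 of 10 of regulators, in 1 of 4 of fatty acid enzymes and in 37.4% of all 32851 promoters. TCACNCCAC lay in 1.24% of all promoters and, among the listed genes, in that of Hmgcs1 alone. A match describes letters and was not tested for binding.

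Levels below are log2 of the processed signal minus the array's 75th percentile, so 0 is the 75th percentile of the array. They are compared between groups for 1 probe and not between genes. A gene was called at an adjusted p of 0.05 (limma, Benjamini-Hochberg over all 18507 genes), and each difference carries its moderated SE. In bulk samples, fewer cells of a type and less RNA per cell cannot be told apart. The M and Ctrl arrays shared slide 1 and the T arrays lay on slide 2 in a scan of their own, so in T against Ctrl and in M against T the group and the slide cannot be told apart. The share of probes well above background ran from 61.0% to 67.0% in M, from 66.6% to 72.6% in T and from 70.3% to 78.9% in Ctrl. Negative controls read highest on M1 and M3, at a net signal of 59.2 and 45.8. Ctrl3 correlated across probes more closely with M2 (0.981) than with Ctrl1 (0.968).

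**Figure D1:**
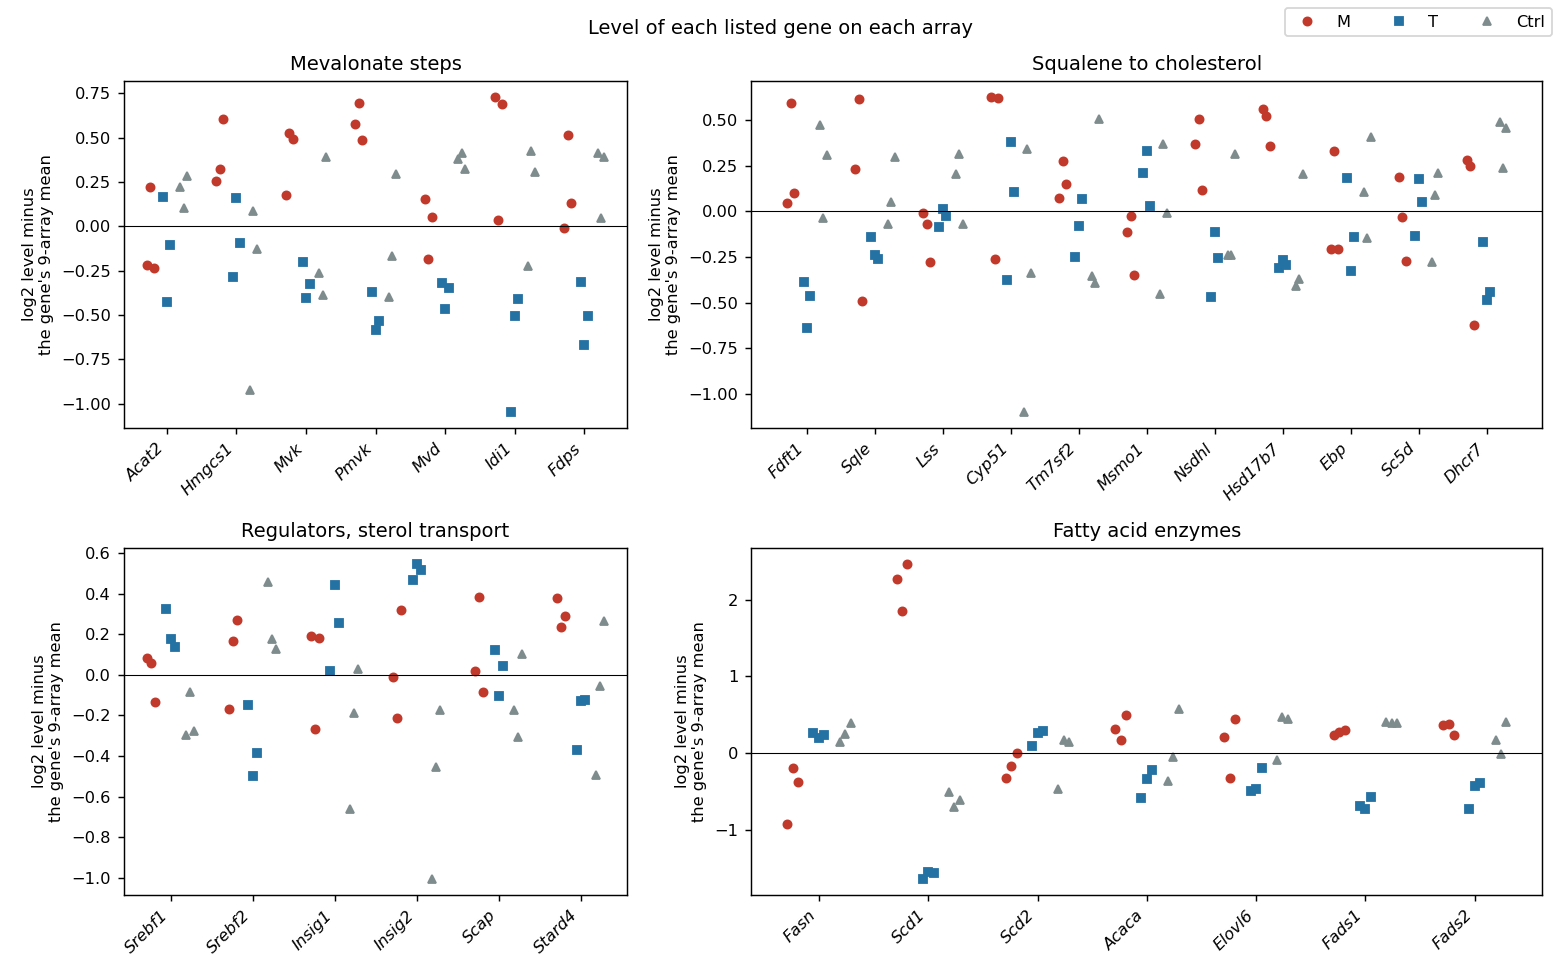
Level of each of the 31 genes on each array, in log2 units relative to the gene's mean over the 9 arrays, by role (M red circles, T blue squares, Ctrl grey triangles, 3 arrays each). Scd1 has its M points about 2 units above the mean and every T point below every Ctrl point, while Lss and Sc5d points of all groups lie within 0.4 of the mean.

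In macrophages co-cultured with CT-26 cells (T), the mevalonate enzymes Mvd, Idi1 and Fdps, the later sterol enzymes Fdft1 and Dhcr7 and the desaturases Scd1, Fads1 and Fads2 were called lower than in Ctrl, and Insig2 was called higher. Of the 31 genes, 10 were called lower and 2 higher in T than in Ctrl, where 27.3% of all genes were called lower, 17.5% higher and 44.8% in either direction. The median difference was -0.22 over the 31 genes and -0.14 over all genes. In 13 of the 31 genes the arrays of T and Ctrl did not overlap, against 53.5% of all genes. The share of listed genes called lower (32.3%) was therefore near that of the array as a whole. Without T2, 4 listed genes were called lower, and without Ctrl2, 6 were.

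In migratory macrophages (M), Scd1 was 6.98 times its level in Ctrl (2.80 on the log2 scale, and 2.21 with normexp background correction), and few other listed genes differed from Ctrl. Scd1, Pmvk and Hsd17b7 were called higher and Fasn lower, against 12.2% of all genes called higher, 11.1% lower and 23.2% in either direction. The median difference was 0.14 over the 31 genes and -0.09 over all genes. Arrays of M and Ctrl did not overlap for 7 of the 31 genes, against 36.2% of all genes. The count rested on single arrays: without Ctrl3, 10 listed genes were called higher, whereas without Ctrl1, Ctrl2, M1, M2, M3, T2 or T3 in turn, 1 was. With the M and Ctrl arrays alone, all on slide 1, Scd1 was the 1 listed gene called.

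Between the co-cultured groups, M was called above T in the desaturases Scd1, Fads1 and Fads2 and in the mevalonate enzymes Mvk, Pmvk, Idi1 and Fdps, and not in the desaturase Scd2. Of the 31 genes, 9 were called higher in M than in T and 1 lower, against 14.6% of all genes called higher, 10.8% lower and 25.4% in either direction. The median difference was 0.39 over the listed genes and 0.11 over all genes, and 23 of 31 differences were above 0. Arrays of M and T did not overlap for 20 of the 31 genes, against 48.3% of all genes. Without T2 or without T3, 5 listed genes were called higher. The 3 comparisons share arrays, so their values are given side by side and are not independent.

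**Figure D2:**
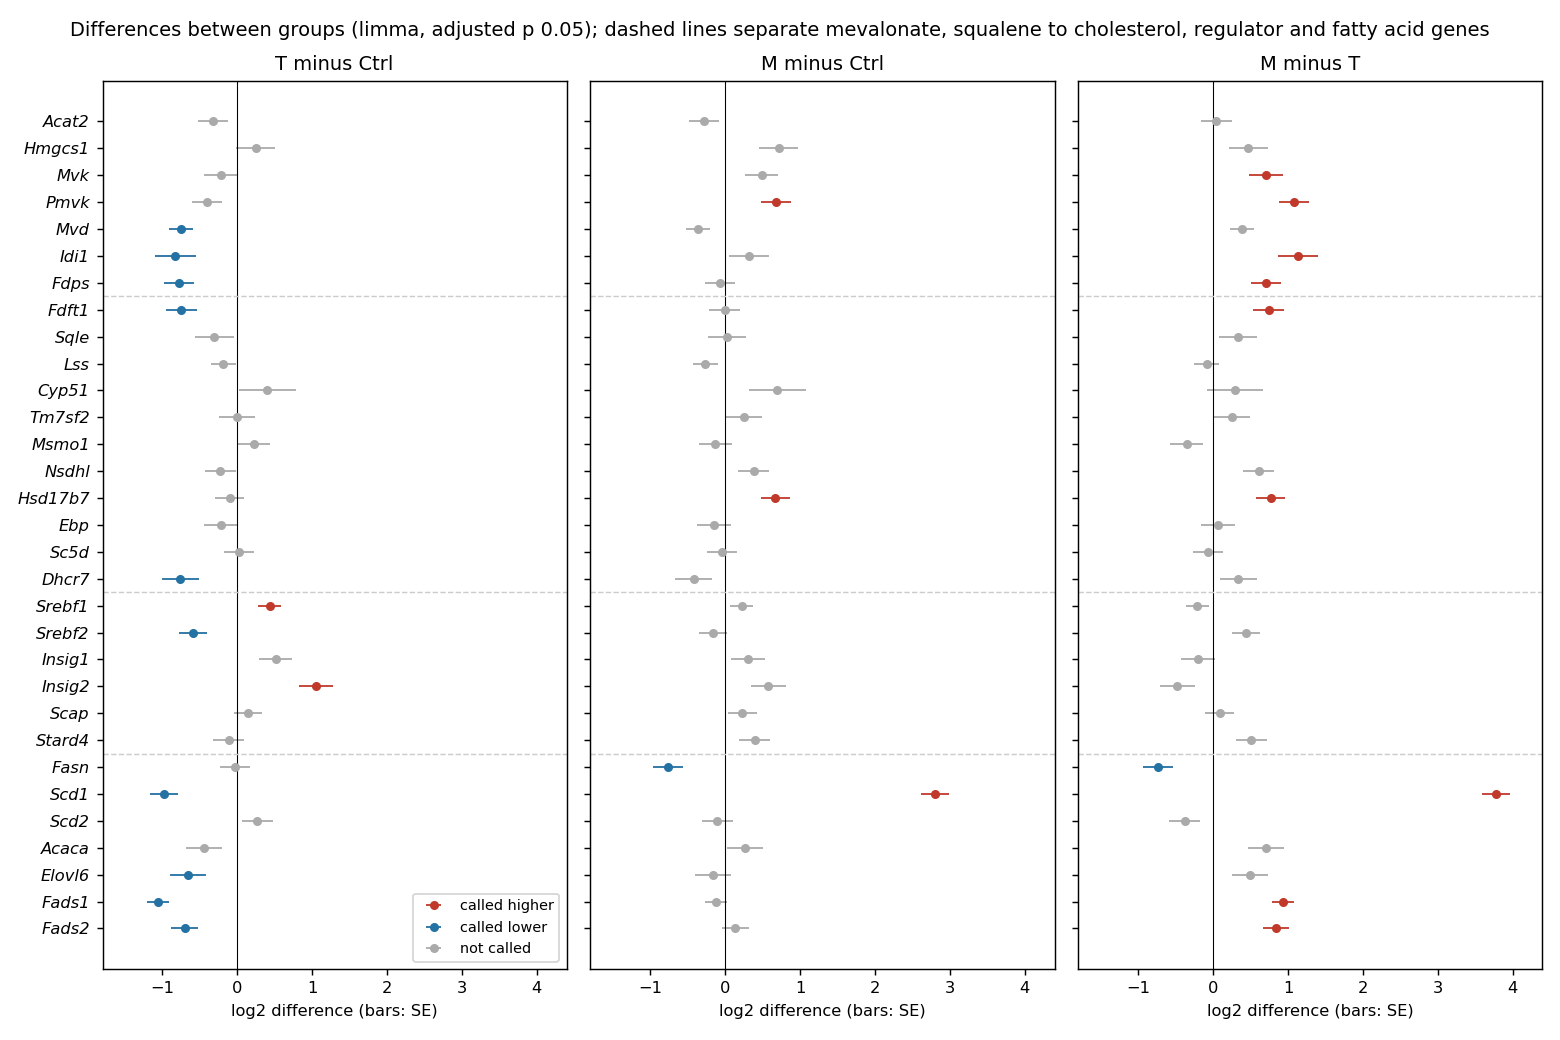
Log2 difference of each gene in the T to Ctrl, M to Ctrl and M to T comparisons (first group minus second), with the moderated SE as bars (red, called higher; blue, called lower; grey, not called). Scd1 lies at 2.80 and 3.78 in the comparisons of M, and the other called differences lie between -1.06 and 1.14.

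Among the mevalonate steps, 3 of 7 genes were called lower in T than in Ctrl, 1 higher in M than in Ctrl and 4 higher in M than in T. Pmvk encodes phosphomevalonate kinase, which adds the next phosphate after mevalonate kinase. Its level was 3.13, 3.25 and 3.04 in M (M1 to M3), 2.18, 1.97 and 2.02 in T, and 2.15, 2.39 and 2.85 in Ctrl. Every M array was above every T and Ctrl array. Pmvk was higher in M than in T by 1.08 ± 0.20 (adjusted p = 0.0033), a call kept in all 22 other settings, and a further probe gave 1.26. Against Ctrl, Pmvk was higher in M by 0.68 ± 0.20 (adjusted p = 0.037). That call was lost without Ctrl1, Ctrl2, M1, M2, M3, T2 or T3 (0.52 to 0.73, adjusted p 0.059 to 0.13). In T against Ctrl its difference was -0.40 ± 0.20 and was not called. The further probe gave -0.62 there, and the mean of the probes was called lower in T (-0.51, adjusted p = 0.032). In M minus Ctrl the further probe gave 0.64.

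Mvk, mevalonate kinase, stood at 3.02, 3.37 and 3.33 in M, at 2.64, 2.44 and 2.52 in T, and at 2.58, 2.45 and 3.23 in Ctrl. M arrays were above T arrays but overlapped Ctrl3. Mvk was higher in M than in T by 0.71 ± 0.22 (adjusted p = 0.041), and the call was lost without M2, M3, T1, T2 or T3 (0.64 to 0.76, adjusted p 0.069 to 0.13). Mvk differed by 0.49 ± 0.22 in M minus Ctrl and by -0.22 ± 0.22 in T minus Ctrl, neither called. Without Ctrl3 the M minus Ctrl difference was 0.72 (adjusted p = 0.0079). A further probe of Mvk gave 0.04 in M minus Ctrl, -0.50 in T minus Ctrl and 0.54 in M minus T.

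Mvd decarboxylates mevalonate diphosphate to isopentenyl diphosphate. It stood at 2.60, 2.26 and 2.49 in M, at 2.12, 1.98 and 2.10 in T, and at 2.82, 2.86 and 2.76 in Ctrl, with no overlap between any groups. Mvd was lower in T than in Ctrl by 0.75 on the log2 scale (SE 0.16, adjusted p = 0.0046), and no single array ended that call. Scaling on the array median ended it (-0.33, adjusted p = 0.24), as did leaving out Ctrl1 and Ctrl2 together (-0.70, adjusted p = 0.055). Its differences of -0.36 in M minus Ctrl and 0.39 in M minus T were not called.

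Idi1 interconverts the isoprene units. Its level was 1.20, 0.50 and 1.16 in M, -0.58, -0.04 and 0.06 in T, and 0.25, 0.90 and 0.78 in Ctrl. T arrays were below all others, and M and Ctrl overlapped. Idi1 was lower in T than in Ctrl by 0.83 on the log2 scale (SE 0.27, adjusted p = 0.030), lost without Ctrl2, Ctrl3, T1 or T2 (-0.90 to -0.63, adjusted p 0.058 to 0.105). It was higher in M than in T by 1.14 ± 0.27 (adjusted p = 0.012), a call that no single array ended. Scaling on the median ended it (1.02, adjusted p = 0.051), as did the deposited value table (0.92, adjusted p = 0.12). With M1 and M3 left out together, which leaves M2 alone, the difference was 0.69.

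Fdps joins isoprene units to farnesyl diphosphate, the branch point to protein prenylation and ubiquinone. Its level was 4.83, 5.35 and 4.97 in M, 4.52, 4.17 and 4.33 in T, and 5.25, 4.89 and 5.23 in Ctrl, with T below both other groups. Fdps was lower in T than in Ctrl by 0.78 on the log2 scale (SE 0.20, adjusted p = 0.011), and without T2 this was -0.69 and no longer called (adjusted p = 0.0501). It was higher in M than in T by 0.71 ± 0.20 (adjusted p = 0.026), lost without M2, M3, T2 or T3 (0.56 to 0.75, adjusted p 0.057 to 0.11). Acat2, the thiolase of the entry step, and Hmgcs1, which makes hydroxymethylglutaryl-CoA, were called in no comparison. Hmgcs1 arrays of M (1.95 to 2.30) lay above those of T (1.41 to 1.86) and Ctrl (0.78 to 1.78), with a difference from Ctrl of 0.72 ± 0.26 (adjusted p = 0.069) that passed without Ctrl3 (0.81, adjusted p = 0.049).

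From squalene to cholesterol, 2 of 11 genes were called lower in T than in Ctrl, 1 higher in M than in Ctrl and 2 higher in M than in T. Fdft1, squalene synthase, makes the step that commits isoprenoids to sterols. Its level was 3.27, 3.81 and 3.32 in M, 2.83, 2.58 and 2.76 in T, and 3.69, 3.19 and 3.53 in Ctrl, with T below both. Fdft1 was lower in T than in Ctrl by 0.75 on the log2 scale (SE 0.21, adjusted p = 0.016) and higher in M than in T by 0.74 ± 0.21 (adjusted p = 0.025). A further probe of Fdft1 went the other way in both, at 0.27 in T minus Ctrl and -0.09 in M minus T, and the mean of its probes was not called. The first call was lost without Ctrl1 or T2 (-0.63 and -0.67, adjusted p 0.057 to 0.066), and the second without M2, T2 or T3 (0.57 to 0.76, adjusted p 0.074 to 0.100).

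Hsd17b7 reduces a ketosterol during removal of the methyl groups of lanosterol. It stood at 1.70, 1.66 and 1.5 in M, at 0.83, 0.87 and 0.84 in T, and at 0.73, 0.77 and 1.34 in Ctrl. All M arrays were above all others, and Ctrl3 was the nearest. Hsd17b7 was higher in M than in T by 0.77 ± 0.19 (adjusted p = 0.016) and higher in M than in Ctrl by 0.67 ± 0.19 (adjusted p = 0.034). The first call was lost without T2 or T3 (0.77 and 0.78, adjusted p 0.053 to 0.057), and the second without Ctrl1, Ctrl2, M1, M2, M3, T2 or T3 (0.56 to 0.73, adjusted p 0.057 to 0.12). Its further probes gave 0.52 and 1.75 in M minus T, and 0.25 and -1.25 in T minus Ctrl. The second of these probes was dim, with a mean of -4.61 in M and -6.36 in T, and was well above background on 7 of 9 arrays.

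Dhcr7 reduces the last ring double bond on the way to cholesterol. It stood at 0.20, 0.17 and -0.70 in M, at -0.25, -0.57 and -0.52 in T, and at 0.41, 0.16 and 0.37 in Ctrl, with T below Ctrl and M spread over both. Dhcr7 was lower in T than in Ctrl by 0.76 on the log2 scale (SE 0.25, adjusted p = 0.031), lost without Ctrl1, Ctrl2, Ctrl3, T2 or T3 (-0.84 to -0.70, adjusted p 0.052 to 0.099). Nsdhl, a sterol dehydrogenase, was higher on every M than on every T array, with a difference of 0.61 ± 0.21 (adjusted p = 0.055) that passed without Ctrl3 (0.61, adjusted p = 0.018). The oxidoreductases Sqle, Cyp51, Tm7sf2, Msmo1 and Sc5d, the cyclase Lss and the isomerase Ebp were called in no comparison. Their differences lay between -0.35 (Msmo1, M minus T) and 0.70 (Cyp51, M minus Ctrl). With normexp background correction Msmo1 was called lower in M than in T (-0.82, adjusted p = 0.013) and higher in T than in Ctrl (0.62, adjusted p = 0.032).

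Among regulators, Insig2 and Srebf1 were called higher and Srebf2 lower in T than in Ctrl, and none of the 6 was called in M against Ctrl or against T. The median difference over the 6 was 0.29 in T minus Ctrl, 0.27 in M minus Ctrl and -0.06 in M minus T. Insig2, the anchor that retains Scap in the endoplasmic reticulum, stood at 1.57, 1.37 and 1.90 in M, at 2.05, 2.13 and 2.10 in T, and at 0.58, 1.13 and 1.41 in Ctrl. T arrays were above all M and Ctrl arrays, and M overlapped Ctrl. Insig2 was higher in T than in Ctrl by 1.05 ± 0.23 (adjusted p = 0.0055), and its further probe gave 1.16. That call was lost in 1 of 23 other settings, with Ctrl1 and Ctrl2 left out together (0.69, adjusted p = 0.082). Insig2 differed by 0.58 ± 0.23 in M minus Ctrl (adjusted p = 0.090, and 0.76 with adjusted p = 0.021 without Ctrl3).

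Srebf2, the transcription factor of the sterol genes, stood at 3.42, 3.76 and 3.86 in M, at 3.44, 3.09 and 3.21 in T, and at 4.05, 3.77 and 3.72 in Ctrl, with T below Ctrl. Srebf2 was lower in T than in Ctrl by 0.60 on the log2 scale (SE 0.19, adjusted p = 0.027), lost without Ctrl1, Ctrl2, T2 or T3 (-0.63 to -0.50, adjusted p 0.053 to 0.11). With the replicate number as a block and all 9 arrays, its adjusted p was 0.0504. Srebf2 differed by -0.16 ± 0.19 in M minus Ctrl and by 0.43 ± 0.19 in M minus T, neither called. Its further probe gave -0.37 in T minus Ctrl, 0.31 in M minus Ctrl and 0.68 in M minus T. The mean of its probes was called higher in M than in T (0.56, adjusted p = 0.020). Srebf1 stood at -0.68, -0.70 and -0.89 in M, at -0.43, -0.58 and -0.62 in T, and at -1.05, -0.84 and -1.03 in Ctrl, with T above Ctrl. Srebf1 was higher in T than in Ctrl by 0.43 ± 0.16 (adjusted p = 0.046), a call lost in 19 of 23 other settings, including the leaving out of any array (0.38 to 0.50, adjusted p 0.053 to 0.12) and the replicate block on T and Ctrl arrays alone (adjusted p = 0.078).

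Insig1, the sterol-responsive relative of Insig2, stood at -1.07, -1.53 and -1.08 in M, at -1.25, -0.82 and -1.01 in T, and at -1.92, -1.45 and -1.23 in Ctrl. Groups overlapped, and the T minus Ctrl difference of 0.51 ± 0.23 had an adjusted p of 0.090 (0.0499 with the replicate block on T and Ctrl arrays, and 0.033 without Ctrl3). Scap, the escort, stood at 3.13, 3.50 and 3.03 in M, at 3.24, 3.01 and 3.16 in T, and at 2.94, 2.81 and 3.22 in Ctrl. All groups overlapped for Scap. Stard4, a cytosolic sterol carrier, stood at -0.23, -0.37 and -0.32 in M, at -0.98, -0.73 and -0.73 in T, and at -1.10, -0.66 and -0.34 in Ctrl. M arrays were above T arrays, by 0.51 ± 0.21 (adjusted p = 0.097), which passed without Ctrl3 (adjusted p = 0.037). A further probe of Stard4 gave 1.01 in M minus T.

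Of the fatty acid enzymes, 4 of 7 were called lower in T than in Ctrl, and in M against T 3 were called higher and 1 lower. Scd1, a stearoyl-CoA desaturase that makes monounsaturated fatty acids, was read by a probe at chr19:44469387-44469446 on mm9, per the files. Its level was -2.11, -2.53 and -1.91 in M, -6.02, -5.93 and -5.95 in T, and -4.88, -5.08 and -4.99 in Ctrl. The groups did not overlap, with M highest and T lowest. Scd1 averaged -2.18 ± 0.32 in M, -5.97 ± 0.05 in T and -4.99 ± 0.10 in Ctrl (SD, n = 3 each).

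Scd1 was higher in M than in Ctrl by 2.80 ± 0.19 (6.98-fold, adjusted p = 4.1e-06) and higher in M than in T by 3.78 ± 0.19 (13.8-fold, adjusted p = 9.7e-07). Both calls were kept in all 22 other settings, at 2.21 to 3.18 and at 2.66 to 3.96. The size of both folds depended on the background correction, since the lowest values, 2.21 and 2.66 on the log2 scale, came with normexp. Scd1 was also lower in T than in Ctrl by 0.98 on the log2 scale (SE 0.19, adjusted p = 0.0028), and this call was lost in 4 other settings, given below. Its processed signal was 859, 429 and 812 in M, against 33.1, 59.6 and 53.9 in T and 74.7, 82.7 and 84.4 in Ctrl, where negative controls read 32.4 to 59.2 on M arrays, 27.1 to 35.3 on T arrays and 24.2 to 36.4 on Ctrl arrays. The T minus Ctrl difference was -0.46 with normexp background correction (adjusted p = 0.073), -0.37 with quantile normalization (adjusted p = 0.19), -0.56 with median scaling (adjusted p = 0.085) and -0.26 in the deposited value table (adjusted p = 0.73).

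Scd2, its paralog, did not share this pattern and stood at 3.04, 3.20 and 3.38 in M, at 3.46, 3.63 and 3.66 in T, and at 2.89, 3.54 and 3.51 in Ctrl. Every M array was below every T array. Scd2 was called in no comparison, with a difference of 0.27 in T minus Ctrl, of -0.11 in M minus Ctrl and of -0.38 in M minus T. With normexp background correction Scd2 was called lower in M than in T (-0.67, adjusted p = 0.040). Fads1 and Fads2 encode the front-end desaturases of polyunsaturated fatty acids, and their probes lie at chr19:10270530-10270589 and chr19:10163229-10163288 on mm9. Fads1 stood at 2.32, 2.35 and 2.38 in M, at 1.39, 1.35 and 1.51 in T, and at 2.48, 2.47 and 2.47 in Ctrl. M and Ctrl arrays were near each other, although every M array was below every Ctrl array, and T was about 1 unit below both.

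Fads1 was lower in T than in Ctrl by 1.06 on the log2 scale (SE 0.14, adjusted p = 0.00048) and higher in M than in T by 0.94 ± 0.14 (adjusted p = 0.0012). Both calls were kept in all other settings, at -1.11 to -0.64 and at 0.81 to 1.01. Its M minus Ctrl difference of -0.12 ± 0.14 was not called. Fads2 stood at 0.93, 0.95 and 0.80 in M, at -0.16, 0.13 and 0.18 in T, and at 0.74, 0.55 and 0.97 in Ctrl, with T below both. Fads2 was lower in T than in Ctrl by 0.70 on the log2 scale (SE 0.18, adjusted p = 0.010) and higher in M than in T by 0.84 ± 0.18 (adjusted p = 0.0066), and no single array ended either call. Median scaling ended both (-0.28 and 0.72, adjusted p = 0.38 and 0.067). The deposited value table ended the call in M minus T (0.75, adjusted p = 0.056). With M1 and M3 left out together, which leaves M2 alone, that difference was 0.90. The further probe of Fads2 gave -0.16 in T minus Ctrl and 0.32 in M minus T.

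Fasn, fatty acid synthase, was the 1 listed gene called lower in M, at -3.41, -2.69 and -2.87 in M, -2.22, -2.29 and -2.25 in T, and -2.34, -2.24 and -2.10 in Ctrl. M arrays were below all others, M1 furthest. Fasn was lower in M than in Ctrl by 0.76 on the log2 scale (SE 0.20, adjusted p = 0.026) and lower in M than in T by 0.73 (adjusted p = 0.024). The first call was lost without Ctrl1, Ctrl2, M1 or M3 (-0.82 to -0.55, adjusted p 0.053 to 0.085) and the second without M1, T1, T2 or T3 (-0.75 to -0.52, adjusted p 0.064 to 0.078). Its T minus Ctrl difference was -0.03 ± 0.20.

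Acaca, the carboxylase that supplies malonyl-CoA, stood at 1.89, 1.76 and 2.08 in M, at 1.0, 1.25 and 1.36 in T, and at 1.23, 1.54 and 2.16 in Ctrl. M arrays were above T arrays by 0.71 ± 0.24, just short of the threshold (adjusted p = 0.054), and this passed in 9 of 22 other settings, among them without Ctrl1 or without Ctrl3 (adjusted p 0.011 to 0.033). Acaca differed by -0.44 ± 0.24 in T minus Ctrl and by 0.27 ± 0.24 in M minus Ctrl, neither called. Its further probes gave -1.06, -0.49 and -0.80 in T minus Ctrl, where the mean of its probes was called lower (-0.70, adjusted p = 0.023). Those probes gave -0.47, 0.27 and -0.41 in M minus Ctrl, and 0.59, 0.76 and 0.39 in M minus T. The second of them has its array coordinate on chromosome 12, whereas Acaca lies on chromosome 11. The third was dim, with a mean of -5.01 in T and -4.20 in Ctrl, and was well above background on 8 of 9 arrays. The mean of the probes includes both. Elovl6, an elongase of long-chain fatty acids, stood at -0.55, -1.08 and -0.30 in M, at -1.25, -1.23 and -0.95 in T, and at -0.85, -0.28 and -0.31 in Ctrl. T lay below Ctrl, and M overlapped both. Elovl6 was lower in T than in Ctrl by 0.66 on the log2 scale (SE 0.24, adjusted p = 0.046), lost without Ctrl2, Ctrl3, M1, T1, T2 or T3 (-0.76 to -0.56, adjusted p 0.061 to 0.14).

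**Figure D3:**
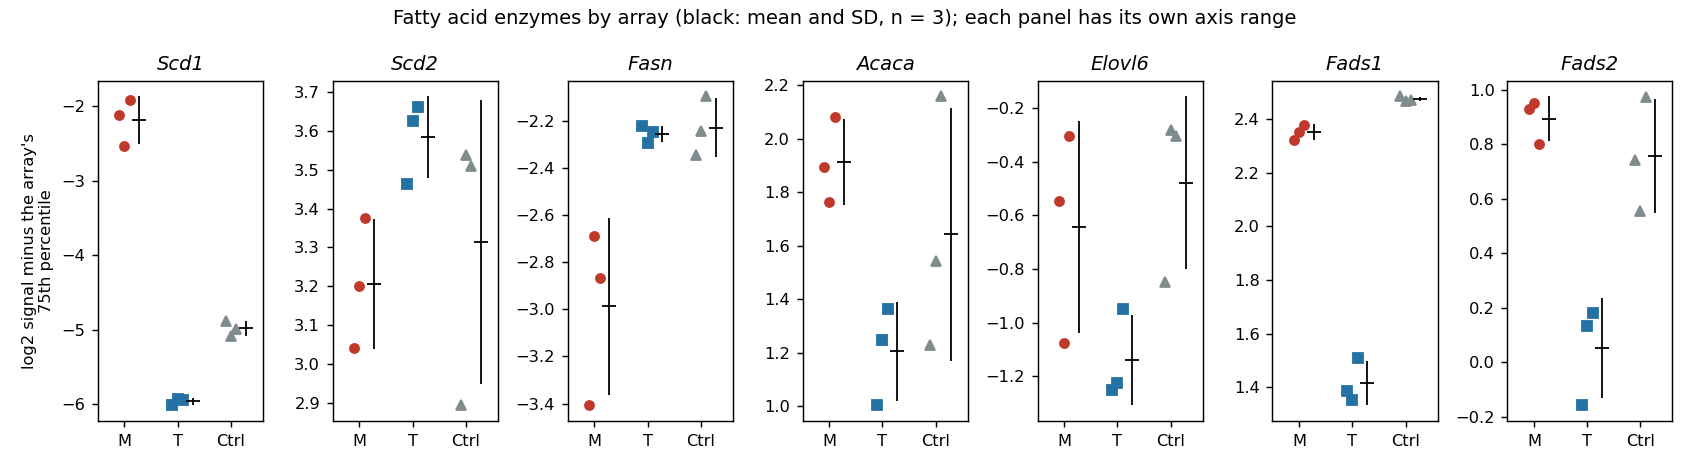
Levels of the 7 fatty acid enzymes on each array (log2 signal minus the array's 75th percentile; M red circles, T blue squares, Ctrl grey triangles; black, mean and SD of 3 arrays), each panel with its own axis range. Scd1 is highest in M, Fads1 and Fads2 are lowest in T, and Fasn is lowest in M.

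Fatty acid and sterol enzymes were set against each other by their medians, with no test. In T minus Ctrl the median was -0.66 over 7 fatty acid enzymes and -0.22 over 18 sterol enzymes, against -0.14 over all genes. In M minus Ctrl it was -0.11 and 0.01, against -0.09, and in M minus T it was 0.71 and 0.36, against 0.11. The sterol median minus the fatty acid median was thus 0.44, 0.12 and -0.35. Single arrays moved these gaps: the first was 0.22 without Ctrl2 and 0.29 without T1, the second was -0.17 without M2, 0.033 without Ctrl2 and 0.28 without M3, and the third was -0.13 without M3 and -0.22 without T1. Relative to the median of all genes, fatty acid enzymes were at -0.52 and sterol enzymes at -0.08 in T minus Ctrl, and at 0.60 and 0.25 in M minus T. Without Scd1 the fatty acid medians were -0.55, -0.12 and 0.60.

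Whether the lists differ in their share of called genes was not tested. In T minus Ctrl, 4 of 7 fatty acid and 5 of 18 sterol enzymes were called lower and none higher, and the sterol share (27.8%) was near the 27.3% of all genes. In M minus T, 3 of 7 fatty acid and 6 of 18 sterol enzymes were called higher, against 14.6% of all genes, and the 1 enzyme called lower was Fasn. Of the sterol enzymes, 15 of 18 had a difference above 0 in M minus T, including all 7 of the mevalonate steps, against 9 of 18 in M minus Ctrl. Each array's mean over the 18 sterol enzymes, relative to the genes' own means, was 0.21, 0.27 and 0.08 in M, -0.24, -0.23 and -0.22 in T, and -0.13, 0.04 and 0.23 in Ctrl. For the 7 fatty acid enzymes it was 0.31, 0.28 and 0.51 in M, -0.54, -0.44 and -0.34 in T, and -0.10, 0.07 and 0.25 in Ctrl. T arrays were lowest for both lists, whereas M and Ctrl overlapped for sterol enzymes. Without Scd1 the fatty acid values of M were -0.02, 0.02 and 0.18, within the Ctrl range of -0.03 to 0.39.

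**Figure D4:**
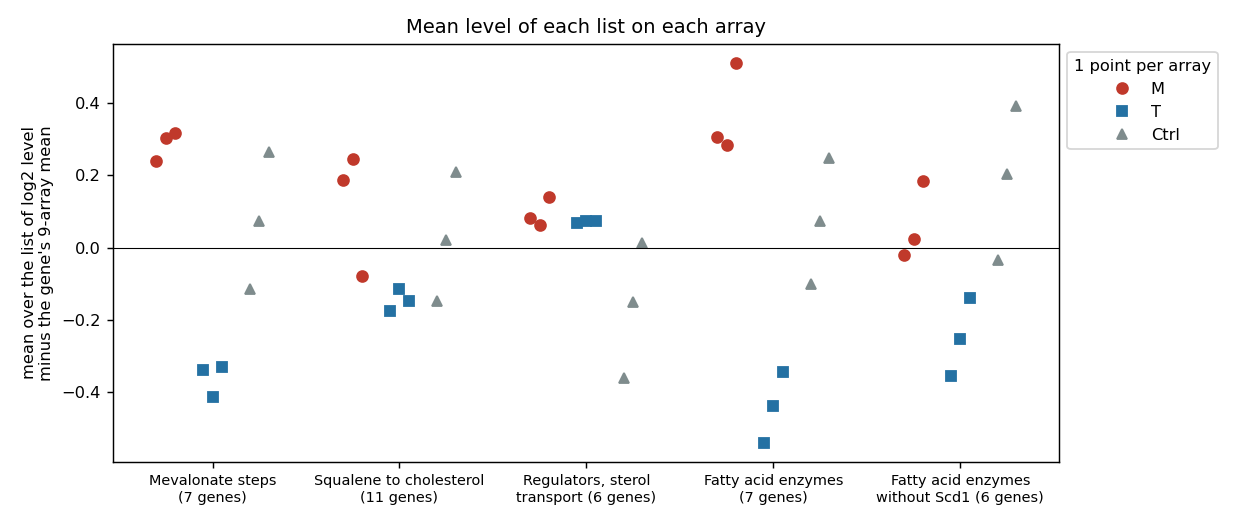
Mean over each list of the log2 level minus the gene's 9-array mean, 1 point per array (M red circles, T blue squares, Ctrl grey triangles). T arrays are lowest for the mevalonate steps and the fatty acid enzymes, and among Ctrl arrays Ctrl1 is lowest and Ctrl3 highest in every list.

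The scaling between arrays moved the median of all genes in T minus Ctrl, which was -0.14 here, 0.00 after quantile normalization and 0.28 when each array's median was subtracted. Of all calls in that comparison, 39.1%, 52.5% and 65.9% were higher. In M minus Ctrl these shares were 52.4%, 66.3% and 74.4%, and in M minus T 57.5%, 54.3% and 44.8%. The sterol median in T minus Ctrl was -0.22, -0.19 and 0.20 and so changed sign, while the fatty acid median stayed below 0 (-0.66, -0.44 and -0.24). Relative to the median of all genes, 12 of 18 sterol and 5 of 7 fatty acid enzymes lay lower in T here, and 14 and 5 after quantile normalization. Median scaling moves all genes alike and so cannot alter these counts. Under median scaling, Fads1 was the 1 listed gene called lower in T than in Ctrl.

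**Figure D5:**
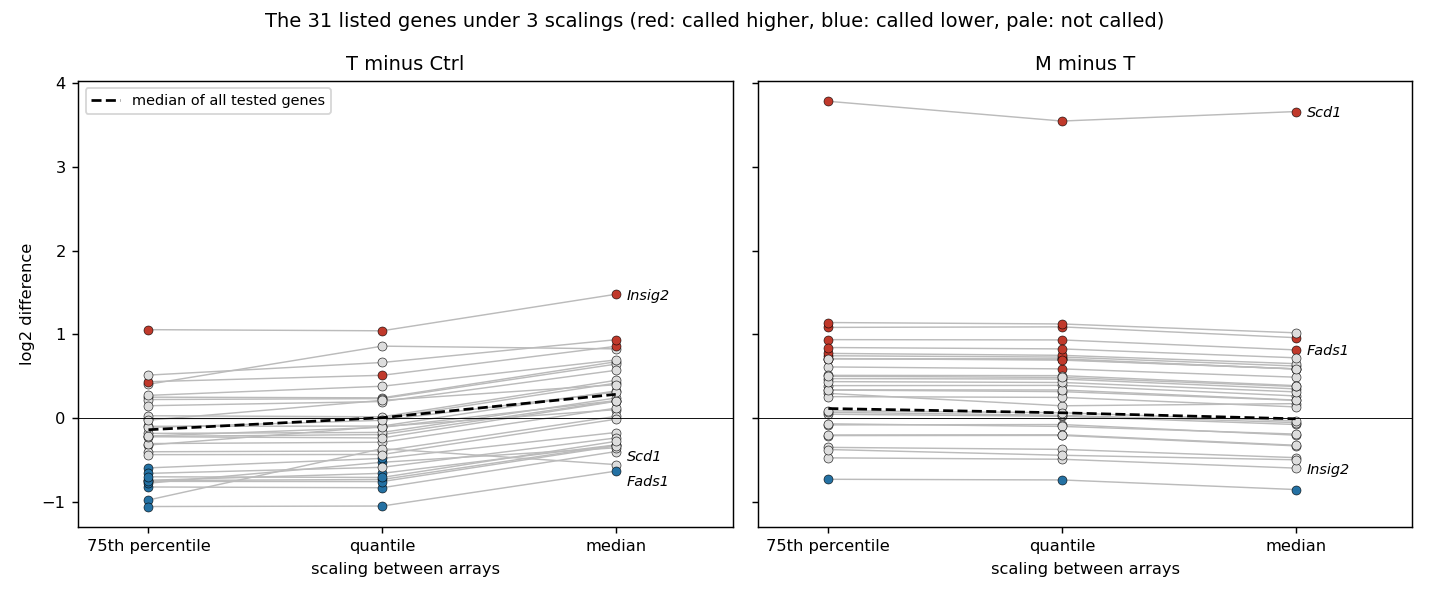
Log2 differences of the 31 genes in T minus Ctrl and M minus T under 3 scalings between arrays (red, called higher; blue, called lower; pale, not called), with the median of all tested genes dashed. Between the 75th percentile and median scaling every gene moves by the same amount as the median, upward in T minus Ctrl.

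Other genes of these pathways were read from lists. Over all genes, 17.5% were called higher and 27.3% lower in T minus Ctrl, 12.2% and 11.1% in M minus Ctrl, and 14.6% and 10.8% in M minus T, and the counts of the lists below stand against these shares. Among cholesterol supply and regulatory genes outside the 31 (24, of which 23 were tested), 5 passed as higher and 3 as lower in T against Ctrl, 5 and 1 in M against Ctrl, and 2 and 3 in M against T. Hsd3b7, of bile acid synthesis, was higher in T by 1.22 and in M by 1.25 against Ctrl (adjusted p = 0.0021 and 0.0032). Erlin2, of the protein degradation system of the endoplasmic reticulum, was higher in T than in Ctrl by 1.39 (adjusted p = 0.0011), and Por, an electron donor of sterol oxidation, was higher in M than in Ctrl by 1.04 (adjusted p = 0.010). The ubiquitin ligases Syvn1 and Rnf145 were lower in M than in T by 0.93 and by 1.03 on the log2 scale (differences of -0.93 and -1.03, adjusted p = 0.0032 and 0.017).

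In the isoprenoid and ubiquinone branch (14 genes), 3 were called higher in T than in Ctrl and 1 lower, 1 higher in M than in Ctrl, and in M against T 2 higher and 1 lower. Ggps1, which lengthens farnesyl to geranylgeranyl diphosphate, was higher in T than in Ctrl by 0.96 (adjusted p = 0.010), as was the prenyl protease Zmpste24 (0.89, and 0.93 in M minus Ctrl). In M minus T, Nus1 (0.67) and Pdss1 (0.59) were higher and Rabggta was lower (-0.80).

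Of 32 tested genes of other fatty acid and triglyceride synthesis steps, 7 passed as higher and 7 as lower in T against Ctrl, 6 and 1 in M against Ctrl, and 7 and 3 in M against T. Dgat2, which closes triglyceride synthesis, was higher in T by 2.28 ± 0.18 (adjusted p = 2.0e-05) and in M by 1.30 (adjusted p = 0.00093), both against Ctrl. Me1, malic enzyme and a source of NADPH for lipid synthesis, was higher in M by 1.55 against Ctrl and by 1.11 against T (adjusted p = 0.00024 and 0.0017). The acyl-CoA synthetase gene Acsl1 was lower in T than in Ctrl (-0.83), Acsl4 was higher in M than in Ctrl (1.36), and Acsl3 was higher in M than in T (1.32). Elovl3 was higher in M than in T (1.82), and the lipase gene Pnpla3 was lower in T than in Ctrl (-2.42).

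Of 19 tested liver X receptor, storage and efflux genes, 6 passed as higher and 3 as lower in T against Ctrl, 4 and 0 in M against Ctrl, and 7 and 4 in M against T. Abca1, the cholesterol efflux pump, was at least 1.40-fold higher in T than in Ctrl (adjusted p = 1.3e-05). Neither the Ctrl nor the M arrays had it well above background, and no fold is given against M. Nceh1, a cholesteryl ester hydrolase, was higher in M by 1.69 against Ctrl and by 1.48 against T (adjusted p = 0.0029 and 0.0044), while Soat1, which esterifies cholesterol, was lower in M than in T (-0.76, adjusted p = 0.0068). Osbpl8, a sterol and lipid exchanger, was higher than in Ctrl in both M (2.01) and T (1.32), Abcg4 was higher in T (1.22), and Nr1h2, a liver X receptor, was higher in M (1.15). Of 18 fatty acid oxidation genes, 3 passed as higher and 4 as lower in T against Ctrl, 0 and 1 in M against Ctrl (limma), and 3 and 3 in M against T. Ppargc1a, a coactivator of oxidative genes, was at least 3.55-fold lower in T than in Ctrl (adjusted p = 0.0012). Ppara was lower in T than in Ctrl (-1.49) and Slc25a20 higher (0.86). Etfa was lower in M than in Ctrl (-0.98) and than in T (-0.71), Etfdh was lower in M than in T (-1.12), and Cpt1a was higher (0.57).

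Markers of macrophages and of other cells were read on the same arrays. The mean level of 8 macrophage markers ran from 2.54 to 2.82 in M, from 2.20 to 2.38 in T and from 1.98 to 2.09 in Ctrl. These means cover members that moved apart. Adgre1, which encodes the sort marker F4/80, was higher in M by 2.86 against Ctrl and by 2.76 against T, and Lyz2 was higher in M by 1.53 against Ctrl. Mertk was higher in T than in Ctrl by 2.74 and lower in M than in T (-2.26), while Csf1r, Cd68, Itgam (-0.67 in M minus Ctrl) and Fcgr1 were called in no comparison. Of the 8, 2 were called higher in T than in Ctrl and 3 higher in M than in Ctrl, with none lower in either. In M minus T, 1 was called lower and 3 higher, namely Adgre1, Lyz2 and Ptprc, which encodes the sort marker CD45. Of the carcinoma epithelium markers, 8 of 10 were tested, with means of -3.55 to -3.03 in M, -2.81 to -2.70 in T and -3.15 to -2.57 in Ctrl. In T minus Ctrl, Krt19 (3.63) and Elf3 (1.46) were called higher and Epcam (-1.60) and Cldn4 (-1.35) lower, and in M minus T Krt19 was at -4.32 and above background on 1 of 3 M arrays. Krt8 and Cdh1 were not well above background on all arrays of any group. Granulocyte markers (6 of 8 tested) ran from -3.0 to -2.64 in M, -3.88 to -3.57 in T and -4.00 to -3.23 in Ctrl, and S100a8 (4.97) and S100a9 (1.58) were called higher in M than in Ctrl. In M minus Ctrl, 4 of the 6 tested granulocyte markers had a difference below 0, and none was called lower. S100a8 was also called higher in T than in Ctrl (3.06), where 2 of the 6 were called lower and the lowest difference was -2.56. The 1 tested mast cell marker of 4, Tpsb2, was higher in T than in Ctrl by 1.54. Tpsb2 was called lower in M than in Ctrl (-0.71) and than in T (-2.25). Of 5 tested T and NK cell markers 3 were called lower and 1 higher in T than in Ctrl. Of 6 cycling-cell genes, 4 were called lower in T than in Ctrl, and in M minus T 3 were called higher and 1 lower. Differences of these genes in M minus T ran from -1.56 to 0.81. Of the 18 sterol enzymes, 5 were called lower in T than in Ctrl, and in M minus T 6 were called higher and none lower. The part of other cells, of cycling cells or of array background in the differences above was not tested.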

How the data were processed

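The submitters' processing notes name Agilent Feature Extraction 10.7.3.1, with which the authors read 9 Cy3 arrays. The deposited scanner files give a processed signal intensity per spot on mouse build mm9, which the file headers show to be background-subtracted, with no scaling from array to array. The deposited value table holds a linear intensity for 4 arrays and log2 values for 5. Column medians as deposited were 195, 246 and 219 for M1, M2 and M3, -3.76, -3.93 and -4.03 for T1, T2 and T3, and 215, -3.39 and -3.71 for Ctrl1, Ctrl2 and Ctrl3. Its column M1 matched the scanner file of M2, and M2 that of M1, within 0.001 on the log2 scale, while T2 matched no file, so the scale and centring of T2 are unknown and the table served as an alternative.

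Control spots and 147 to 299 outlier spots per array were left out, and saturation was seen at 0 spots. Repeated spots were averaged per probe before log2, and each array's 75th percentile was subtracted. Accessions named 26762 probes through a RefSeq gene table of GRCm38.p6, 6344 kept the array's name and 22575 had none. A probe was tested if well above background on all 3 arrays of a group, and the brightest tested probe stood for its gene. Of 46 probes of listed genes 45 were tested, 11 genes had more than 1, and these differed in sign for 3 genes in T minus Ctrl, 3 in M minus Ctrl and 1 in M minus T.

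Group means of all 9 arrays were fitted with limma 3.58.1 in R 4.3.3, with Benjamini-Hochberg adjustment, after a test on simulated data. The number of arrays limits the precision. Bounds ("at least") set the bright group's mean against a floor for the dim group, which on each array is the probe's own signal or the lowest signal counted as well above background, whichever is higher. Members and lists were chosen with earlier results of these data known. Values on every array are given for listed genes called in any comparison, for fatty acid enzymes and for regulators, and other lists are shown by the called genes with the 3 smallest adjusted p per comparison. A few genes that this rule names are not reported here. Deviations of same-numbered T and Ctrl arrays from their group means correlated at r of 0.54, 0.12 and 0.37, while T2 correlated more closely with Ctrl3 (0.19). No label pairs these arrays, and the check does not settle whether the numbers do. For same-numbered M arrays against T and Ctrl, r lay between -0.27 and 0.02. The deposited table exchanges M1 and M2, so their numbers are uncertain. M2 gave 0.35 with Ctrl1 and 0.32 with T1, and M1 gave 0.04 with Ctrl2 and 0.06 with T2. Whether M arrays are paired with the others is therefore not settled. Exon and UTR annotation of probes was not analysed here.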

Additional observations from a re-analysis of the deposited data

How the results depend on the processing

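Of the listed genes' calls, 1 of 12 in T minus Ctrl (Fads1), 1 of 4 in M minus Ctrl (Scd1) and 3 of 10 in M minus T (Scd1, Fads1 and Pmvk) were kept under every alternative, and no called difference changed sign. Counts of listed genes called higher in T minus Ctrl were 2, and 1 without the filter on dim probes, in the deposited table, with 2 groups in the fit, with the replicate block, with M1 and M3 left out, with trend and robust variance or with unnamed probes, and 0 with Ctrl1 and Ctrl2 left out (leaving out 1 array gave 1 to 2). Those called lower were 10, and 1 under median scaling, 3 in the deposited table and 5 with Ctrl1 and Ctrl2 left out (leaving out 1 array, 4 to 10). In M minus Ctrl, 3 were called higher, and 1 in the deposited table, with 2 groups, with M1 and M3 left out or with Ctrl1 and Ctrl2 left out (leaving out 1 array, 1 to 10). There 1 was called lower, and 2 with normexp and 0 with quantile or median scaling, in the deposited table, with 2 groups, with M1 and M3 left out or with Ctrl1 and Ctrl2 left out (leaving out 1 array, 0 to 1). In M minus T, 9 were called higher, and 3 under median scaling or in the deposited table and 5 with M1 and M3 left out (leaving out 1 array, 5 to 12). There 1 was called lower, and 3 with normexp and 0 in the deposited table or with M1 and M3 left out (leaving out 1 array, 0 to 1). The sterol minus fatty acid median in T minus Ctrl was 0.26 with normexp and 0.25 with quantile normalization (leaving out 1 array, 0.22 to 0.54). In M minus Ctrl it was 0.33 with M1 and M3 left out (leaving out 1 array, -0.17 to 0.28), and in M minus T -0.52 with normexp and -0.039 with M1 and M3 left out (leaving out 1 array, -0.42 to -0.13). The cause of these changes was not tested.

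With the replicate block on all 9 arrays, Srebf1 and Srebf2 lost their call in T minus Ctrl, Pmvk and Hsd17b7 in M minus Ctrl (adjusted p = 0.055 and 0.052), and Fdft1, Fdps and Mvk in M minus T (adjusted p = 0.0504, 0.052 and 0.053), while Hmgcs1 in M minus Ctrl and Acaca in M minus T gained one. With the replicate block on T and Ctrl arrays alone, 2 listed genes were called higher and 10 lower; Srebf1 lost its call, Insig1 gained one, and no other listed call changed. The slide as a block was not run, because T lies alone on its slide. Over all genes, counts moved by over 1.5 times: higher in T minus Ctrl 3241 (1614 to 5176), lower 5051 (1702 to 5848); higher in M minus Ctrl 2250 (746 to 4012), lower 2047 (153 to 3923); higher in M minus T 2697 (762 to 5281), lower 1997 (664 to 2501). The alternatives with unnamed probes, with Ctrl1 and Ctrl2 left out, and with the block on T and Ctrl were chosen after seeing the data. Groups of 3 arrays were too small for a search for single outlying samples.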
